A study of Mus musculus with 8 samples.

Results

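Calm2 and Calm3, Camk2a and Pde1a are a small set of genes of calcium signalling through calmodulin, and they were described here across the brains of 4 ADAR2 mutant mice. They account for 4 of the 8653 genes that could be named on the array and for 9 of its 12131 named spots, out of 20794 spots in all. Calm2 had 2 spots, Calm3 had 3, Camk2a had 2 and Pde1a had 2, and every one of the 9 had a value on all 8 arrays. The genes were listed with their mean ratios from these arrays in view, since Calm2 and Calm3 stood among the most positive ones, so the values of these 4 genes are descriptions and carry no test. Every gene name rests on a shift of 11 positions between the annotation and the spots, which is stated nowhere in the labels and was found as the shift at which spots of the same gene agreed.

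The mutants, labelled ADAR-/-/GluR-BR/R, were male and 19 weeks old, and brain RNA of each was set against brain RNA pooled from wildtype males of the same age. The genotype gives ADAR-/- and the sample titles name ADAR2, so the mutants are taken to lack ADAR2 (gene Adarb1). The wildtype pool carries neither change. ADAR2 is an enzyme that deaminates adenosine in double-stranded RNA, and GluR-B is the AMPA receptor subunit whose arginine form the R alleles encode. Each mouse was hybridised on 2 arrays, with its RNA in Cy5 on 1 of them and in Cy3 on the other, and replicates are mice (n = 4). The pool is the only control, so the spread among wildtype mice enters no error given here. It held RNA of 4 mice per the design and of 6 per the labelling protocol, and the labels name no strain. Usable log2 ratios numbered 20211 to 20559 per array. A ratio holds no level, so the label of the tissue could not be checked against the level of brain markers, and fewer cells of a type cannot be told apart from less RNA per cell.

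Calmodulin is the calcium sensor found in every animal cell. Calcium that enters a neuron through receptors and channels binds to its EF hands, and the loaded protein switches on kinases, the phosphatase calcineurin, phosphodiesterases, cyclases and pumps. Calm2 and Calm3 are separate genes that encode the same protein. Camk2a encodes the alpha subunit of CaM kinase II, an abundant protein of forebrain synapses, and Pde1a encodes a phosphodiesterase that breaks down cyclic nucleotides when calmodulin binds to it.

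The labels do not say which dye is the numerator of the deposited ratio, so no direction of mutant against wildtype is given. The mean ratio is the average of the log2 ratios of a mouse's 2 arrays, or the value of 1 array where the other had none. It compares mutant with pool only if the mutant stands on the same side of every deposited ratio. The swap component is the ratio with the mutant in Cy5 minus the ratio with the mutant in Cy3, divided by 2, after subtraction of each array's median. With Cy5 as the numerator on every array, it would be the log2 ratio of mutant to pool. Across 18797 spots these quantities were negatively related (Pearson r = -0.563, a description over spots that share their arrays), so a gene chosen for a positive mean ratio tends to have a negative swap component, and the swap component is no independent check of the choice.

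On the arrays with the mutant in Cy3, every spot of Calm2, Calm3 and Camk2a lay above 0 in every mouse. On those with the mutant in Cy5 the same spots lay lower, on both sides of 0. Over these 7 spots the log2 ratio ran from 0.54 to 2.47 with the mutant in Cy3, with a median of 1.61. With the mutant in Cy5 it ran from -0.41 to 1.07, with a median of 0.38. The ratios of all spots were also more widely spread with the mutant in Cy3 (median SD per array 1.1) than in Cy5 (0.827). As percentiles of all spots on an array, the 7 spots had a median of 97.7 with the mutant in Cy3 and of 75.4 in Cy5. Of their 56 values 53 were above 0, and the 3 others all belonged to arrays with the mutant in Cy5. Pde1a did not share this pattern.

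**Figure D1:**
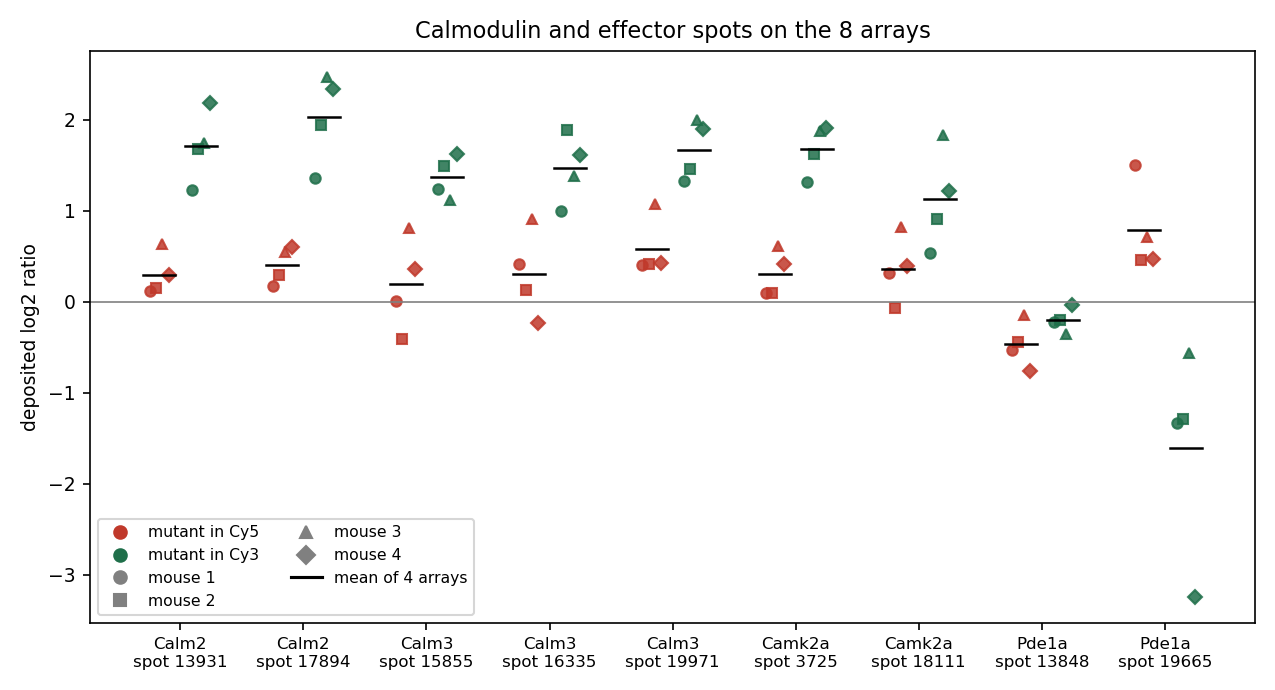
Deposited log2 ratio (vertical axis) of each of the 9 spots on the 8 arrays, with colour for the dye of the mutant, a symbol for each mouse and a black line for the mean of 4 arrays. The Calm2, Calm3 and Camk2a spots have means of 0.19 to 0.58 with the mutant in Cy5 and of 1.12 to 2.03 with the mutant in Cy3, while Pde1a spot 19665 runs the other way.

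Averaged over its spots Calm2 had the highest mean ratio of the 4 genes, and the highest values with the mutant in Cy3. At spot 17894 the log2 ratios of mice 1 to 4 were 0.17, 0.29, 0.55 and 0.60 with the mutant in Cy5, and 1.36, 1.94, 2.47 and 2.34 with the mutant in Cy3. At spot 13931 they were 0.12, 0.15, 0.63 and 0.29, and then 1.23, 1.68, 1.74 and 2.18. All 16 values of the gene were above 0 and the orientations did not overlap at either spot. The mean ratio was 1.22 ± 0.347 (SD, n = 4) at spot 17894, rank 13 from the top among 20595 spots, and 1.0 ± 0.26 at spot 13931, rank 222. The swap component was -0.92 ± 0.0908 and -0.81 ± 0.154, below 0 in 4 of 4 mice at each spot.

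Calm3, which encodes the same protein from another chromosome, had lower values than Calm2 with the mutant in Cy3 (gene means of 1.50 ± 0.226 and 1.87 ± 0.424, SD, n = 4) and about the same with the mutant in Cy5 (0.36 ± 0.392 and 0.35 ± 0.204). At spot 19971 the log2 ratios were 0.40, 0.41, 1.07 and 0.43 with the mutant in Cy5 and 1.33, 1.46, 1.99 and 1.90 with the mutant in Cy3. At spot 16335 they were 0.41, 0.13, 0.91 and -0.23, and then 1.0, 1.89, 1.38 and 1.61. At spot 15855 they were 0.01, -0.41, 0.81 and 0.36, and then 1.24, 1.49, 1.12 and 1.62. Mouse 3 was the highest of the 4 mice with the mutant in Cy5 at each of these spots, and the single negative values came from mouse 4 and mouse 2. The orientations did not overlap at any of the 3 spots. The mean ratios were 1.12 ± 0.299, 0.89 ± 0.227 and 0.78 ± 0.232 (SD, n = 4), and the swap components -0.65 ± 0.0963, -0.69 ± 0.341 and -0.69 ± 0.36.

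Promoters are shown for Calm3 and Pde1a alone, because no window matched Calm2 and none was kept for Camk2a. They come from RefSeq (GRCm38.p6), where 1 window matched Calm3 and 4 matched Pde1a. They are not read against the agreement of spots. The Calm3 window holds the 250 bases before the start of transcription, at chr7:16924033-16924282 on the minus strand. The Pde1a window, the most upstream of 4 starts, lies at chr2:80129413-80129662 on the minus strand. Capitals mark TGACG, the core of the site of the calcium- and cAMP-responsive factor CREB, searched on both strands.
Calm3: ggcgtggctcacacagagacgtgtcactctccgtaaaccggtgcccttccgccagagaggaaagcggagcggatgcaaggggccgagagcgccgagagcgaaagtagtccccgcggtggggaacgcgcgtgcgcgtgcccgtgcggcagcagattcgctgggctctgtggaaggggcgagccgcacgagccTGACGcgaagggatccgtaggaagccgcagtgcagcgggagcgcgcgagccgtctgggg
Pde1a: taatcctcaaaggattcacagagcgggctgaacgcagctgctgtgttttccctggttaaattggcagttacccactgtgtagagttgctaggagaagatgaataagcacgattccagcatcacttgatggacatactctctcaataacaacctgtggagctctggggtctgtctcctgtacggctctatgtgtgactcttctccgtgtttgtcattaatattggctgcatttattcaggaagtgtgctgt
The Calm3 window holds 33 CG dinucleotides and 1 TGACG, and the Pde1a window shown holds 5 and no TGACG. Of the 3 other Pde1a windows, which hold 6, 2 and 1 CG dinucleotides, 1 has TGACG and 2 have TATAAA. Among 32851 promoter windows of this length the median number of CG dinucleotides was 6, which puts Calm3 at percentile 96.2 and Pde1a at percentile 47.0. TGACG occurs in 17.8% of these windows and the full palindrome TGACGTCA in 1.55%. Neither window shown holds TGACGTCA, the GC box GGGCGG or TATAAA. Of these windows 32.7% hold the GC box and 12.4% hold TATAAA. The motif CCAAT, found in 33.8%, occurs at 2 places in the Pde1a window shown and nowhere in that of Calm3. The letters describe the windows and say nothing of binding in these brains.

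Camk2a, the kinase subunit, behaved like Calm2 at spot 3725 and less so at spot 18111. At spot 3725 the log2 ratios of mice 1 to 4 were 0.10, 0.10, 0.61 and 0.41 with the mutant in Cy5 and 1.31, 1.62, 1.87 and 1.91 with the mutant in Cy3. At spot 18111 they were 0.31, -0.07, 0.82 and 0.39, and then 0.54, 0.91, 1.83 and 1.22. The orientations overlapped at spot 18111, where mouse 1 with the mutant in Cy3 (0.54) lay below mouse 3 with the mutant in Cy5 (0.82). With array medians subtracted they did not overlap there either. The mean ratios were 0.99 ± 0.252 and 0.74 ± 0.428 (SD, n = 4), and the swap components -0.79 ± 0.0796 and -0.49 ± 0.13.

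Pde1a, the phosphodiesterase, gave contradictory spots. At spot 13848 all 8 values were below 0, namely -0.53, -0.44, -0.15 and -0.76 with the mutant in Cy5 and -0.22, -0.20, -0.36 and -0.04 with the mutant in Cy3. At spot 19665 the values were 1.50, 0.46, 0.71 and 0.47 with the mutant in Cy5 and -1.33, -1.29, -0.56 and -3.24 with the mutant in Cy3, with no overlap. The mean ratios of these spots were near each other, at -0.34 ± 0.0668 and -0.41 ± 0.692 (SD, n = 4). The swap components were not, at -0.24 ± 0.196 and 1.09 ± 0.559. Spot 19665 thus lay at percentile 99.7 of the swap component of all spots, while all Calm2, Calm3 and Camk2a spots lay between percentiles 0.495 and 12.2.

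**Figure D2:**
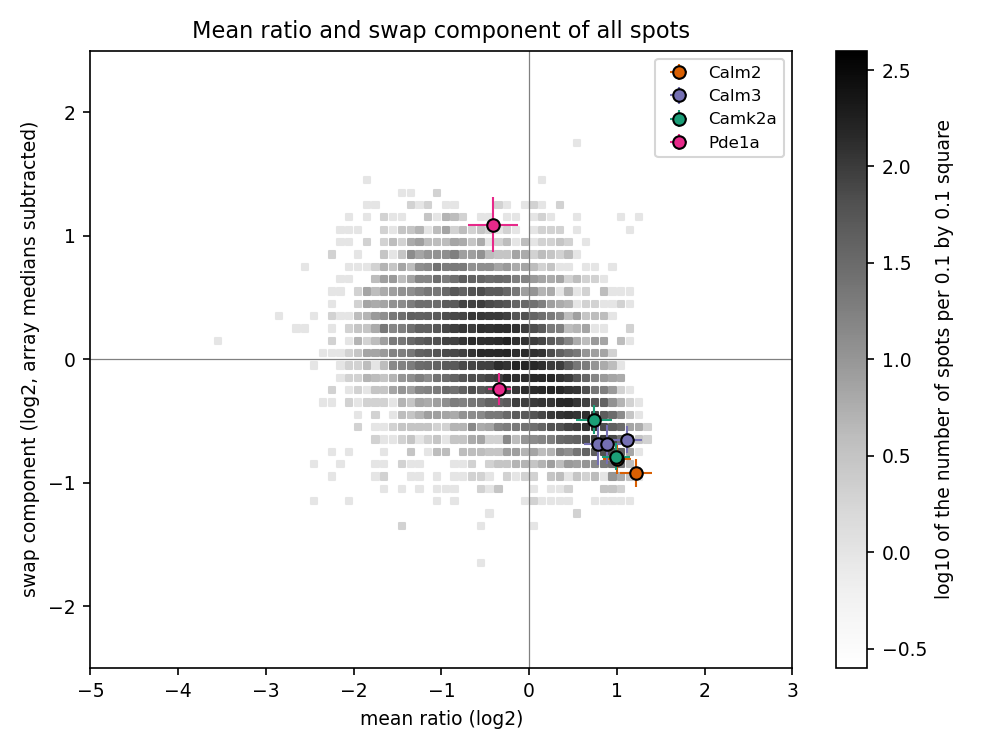
Mean ratio (horizontal axis, log2) against swap component (vertical axis, log2, array medians subtracted) for all spots with values on 8 arrays, in grey by the number of spots per square, with the 9 named spots and their moderated standard errors (n = 4 mice). The 7 Calm2, Calm3 and Camk2a spots sit at the lower right end of the cloud, from 0.74 to 1.22 and from -0.92 to -0.49, and the Pde1a spots sit to the left of 0, at -0.24 and 1.09 on the vertical axis. Calm2 spot 13931 lies beneath Camk2a spot 3725.

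In the fit of limma over all spots 7 of the 9 spots passed an adjusted p of 0.05 with a positive mean ratio and none with a negative one, where 29.6% of all 20595 spots were called, 11.1% positive and 18.5% negative. The mean ratio chose the genes, so nothing is read from this count. In the swap component 4 spots passed with a negative value and 1, Pde1a spot 19665, with a positive one, against 6.43% and 1.41% of 18797 spots (7.84% in either direction). None of these 5 swap calls was kept as deposited, with runs of 48 spots centred, or without any 1 mouse. The swap calls and the counts that follow come from the same arrays on which the genes were listed, so nothing is read from them either. Values above 0 on all 8 arrays were found for 4 of the 9 spots and for 9.24% of all spots. All 4 values with the mutant in Cy3 lay above all 4 with the mutant in Cy5 at 6 of the 9 spots, and at 12.1% of all spots, and the reverse held at 1 spot and at 8.85%. With array medians subtracted the first held at 7 of the 9 spots and at 16.7% of all spots, and the reverse at 1 and at 5.63%.

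Averaged over its spots, Calm2 had a mean ratio of 1.11 ± 0.303 (SD, n = 4), Calm3 of 0.93 ± 0.208, Camk2a of 0.87 ± 0.332 and Pde1a of -0.37 ± 0.368. These are ranks 8, 100, 191 and 5391 from the top among 8605 genes. Within the mice Calm2 exceeded Calm3 by 0.18 ± 0.172, with the difference between -0.01 and 0.40, and Calm3 exceeded Camk2a by 0.06 ± 0.134, above 0 in 2 of 4 mice. The order of these neighbours is within or near the spread of the mice. Camk2a exceeded Pde1a by 1.24 ± 0.503, between 0.71 and 1.88 in the 4 mice.

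The agreement of spots is a description only, since it served to find the naming shift and the genes were listed for ratios over the same spots. Spots of the same gene lay closer together for Calm2, Calm3 and Camk2a than the median pair of spots of 1 gene, and farther apart for Pde1a. Over the 8 arrays, with array medians subtracted, the root mean square difference of the Calm2 spots was 0.311, and their Pearson r was 0.975. For the 3 pairs of Calm3 spots it was 0.369, 0.401 and 0.467 (r = 0.896, 0.908 and 0.913), and for the Camk2a spots 0.46 (r = 0.892). Among 3958 pairs of spots from 2256 genes the median difference was 0.982 and the median r 0.145, and these 5 pairs lay between percentiles 3.26 and 10.2 of the differences. The Pde1a spots differed by 1.58 (percentile 84.2, r = -0.59), and by as much as 3.19 on the array of mouse 4 with the mutant in Cy3. These correlations are descriptions over 8 arrays that share the pool and carry the exchange of dyes.

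**Figure D3:**
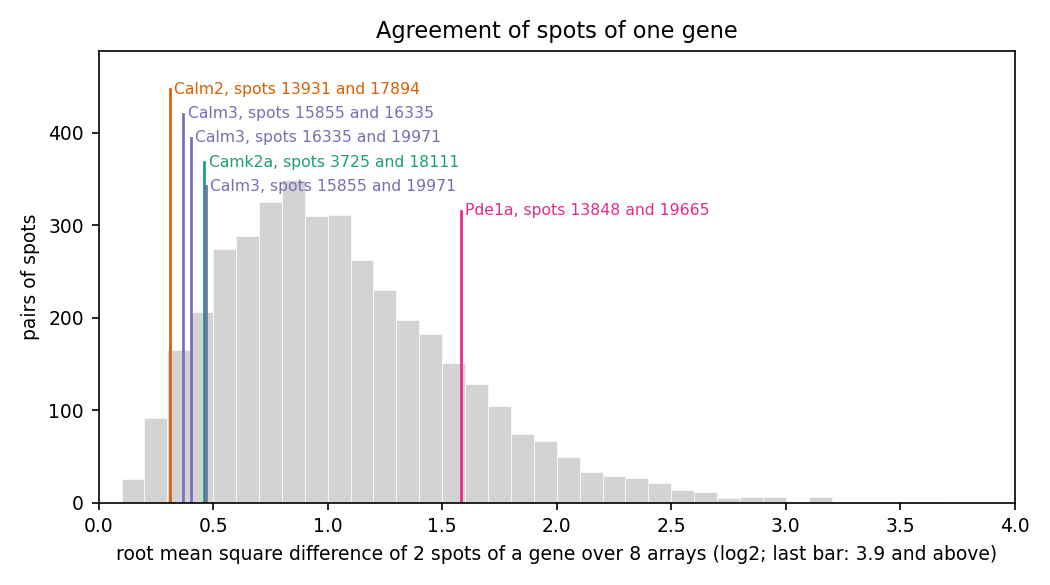
Number of pairs of spots of 1 gene (vertical axis) by their root mean square difference over 8 arrays (horizontal axis, log2, array medians subtracted) in grey, with coloured lines for the 6 pairs of the named genes. The Calm2, Calm3 and Camk2a pairs lie between 0.311 and 0.467, below the median of 0.982, and the Pde1a pair lies at 1.58.

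Over the 8 arrays with medians subtracted, the gene profile of Calm2 was correlated with that of Camk2a at r = 0.974 and with that of Calm3 at 0.952, and Calm3 with Camk2a at 0.951. Such values are common on these arrays, which share the exchange of dyes and the pool: 562 of 8118 other genes (6.92%) were above 0.9 with Calm2, and 117 genes matched Calm2 as well as Camk2a did or better. With the mean of each dye orientation removed, the same 3 correlations were 0.726, 0.401 and 0.536. Pde1a was at -0.766 with Calm2, and 26 genes were above 0.9 with Pde1a. The Pde1a profile is the mean of spots that disagree (r = -0.59), so its correlations describe neither spot by itself. The genes most like Calm2 were Tuba1a, an alpha tubulin (r = 0.9969), Ewsr1, an RNA-binding protein (0.9954), and Rab6b, a small GTPase of the Golgi (0.995). Those most like Calm3 were Ap2m1, an adaptor of clathrin-coated pits (0.9938), the kinesin Kif5a (0.9935) and the reticulon Rtn1 (0.9917). For Camk2a they were the calcium sensor of exocytosis Syt7 (0.9971), the translation factor Eif3c (0.9969) and Antxr1 (0.9941), and for Pde1a Hdgfl2 (0.9686), the kinase Pak4 (0.9633) and the phosphatase Cdc25a (0.9629). All are Pearson r over 8 arrays among 8119 genes, with no test.

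Several of these spots lay in parts of the spot order where ratios were positive in general. In runs of 48 consecutive spots, the run of Calm2 spot 17894 had a median mean ratio of 0.42 (percentile 98.8 of 434 runs), and those of the 3 Calm3 spots and of Camk2a spot 18111 had medians of 0.10 to 0.21 (percentiles 85.3 to 92.9). The runs of Calm2 spot 13931 and Camk2a spot 3725 had medians of -0.54 and -0.21. Calm2 spot 13931, Calm2 spot 17894, Calm3 spot 19971 and Camk2a spot 3725 each had the highest mean ratio of their run. Relative to the run median the 7 spots stood from 0.53 to 1.54 higher, and Pde1a stood 0.24 higher at spot 13848 and lower by 0.30 at spot 19665 (difference -0.30). With each array's runs centred on their medians the mean ratios were 1.32 and 0.64 at Calm2 spots 13931 and 17894, and 0.36, 0.61 and 0.67 at Calm3 spots 15855, 16335 and 19971. They were 0.90 and 0.38 at Camk2a spots 3725 and 18111. Calm2 spot 17894, Calm3 spots 15855 and 19971 and Camk2a spot 18111 were then no longer called. Since the mean ratio chose these genes, nothing is read from which spots were called.

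The calmodulin pathway around these genes held calls on both sides of 0. Of 79 other genes on 6 lists of calmodulin genes, kinases, calcineurin genes, cyclic nucleotide enzymes, other enzymes and binding proteins, 45 were measured. In the mean ratio 8 passed with a positive value, 11 with a negative one and 26 did not pass (limma, Benjamini-Hochberg over 8605 genes), where 28.8% of all genes were called, 11.3% positive and 17.5% negative. The median of the 45 was -0.16, against -0.18 for all genes. With array medians subtracted, which moved the median of all genes from -0.18 to -0.02, there were again 19 calls, 12 positive and 7 negative, of which 15 were the same genes. Calm4, Camk2g, Dapk2 and Phkg2 were lost, and 4 others entered. Without mouse 2, mouse 3 or mouse 4 no call was left among them (19, 20 and 24 genes at an unadjusted p below 0.05), and without mouse 1 there were 10 calls. The arrays with the mutant in Cy5 gave none by themselves (9 genes at an unadjusted p below 0.05), runs of 48 spots centred gave 12, and names at the same spot number gave 6.

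**Figure D4:**
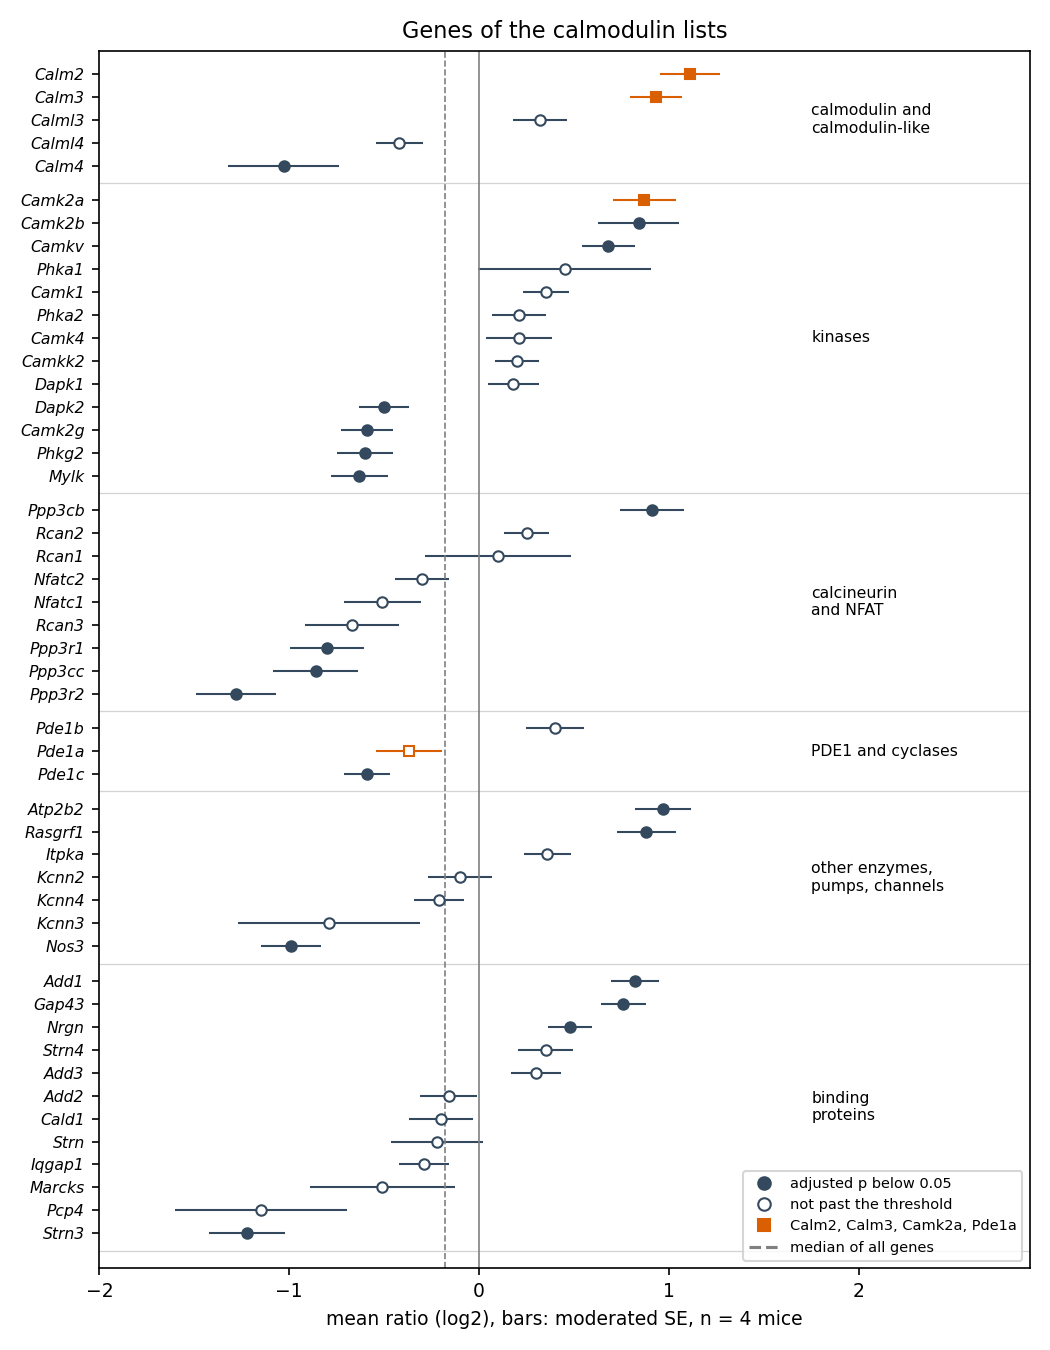
Mean ratio (horizontal axis, log2) with its moderated standard error (n = 4 mice) for each measured gene of the 6 calmodulin lists, filled where the adjusted p was below 0.05, with orange squares for the 4 genes chosen on these values and a dashed line at the median of all genes, -0.18. Calls lie on both sides of 0, from Strn3 and Ppp3r2 at -1.22 and -1.28 to Atp2b2 at 0.97.

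Among the other genes of the calmodulin family, 1 of the 3 measured was called. Calm4, a calmodulin-like protein of skin, had a mean ratio of -1.03 ± 0.294 (moderated SE of limma, n = 4, adjusted p = 0.0481), below 0 in 4 of 4 mice. Its log2 ratios were -1.36, -0.10, 0.33 and 0.26 with the mutant in Cy5 and -2.04, -2.94, -2.07 and -0.35 with the mutant in Cy3, so they overlapped between the orientations and 2 of them were above 0. Tested as a spot among all spots rather than as a gene, it had an adjusted p of 0.051 in limma, and as a gene with array medians subtracted 0.0524. Calml3 stood at 0.32 (adjusted p = 0.136) and Calml4 at -0.42 (adjusted p = 0.0529, limma).

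Of 12 other kinase genes 2 were called positive, 4 negative and 6 not. Camk2b, the beta subunit that joins the alpha subunit in the CaM kinase II holoenzyme, stood at a mean ratio of 0.84 ± 0.213 (moderated SE of limma, n = 4, adjusted p = 0.0361). Camkv, a pseudokinase related to the CaM kinases, had 0.68 ± 0.14 (adjusted p = 0.0226). The spot of Camk2b read -0.43, -0.02, 0.60 and 0.60 with the mutant in Cy5 and 0.85, 1.39, 1.84 and 1.91 with the mutant in Cy3, which resembles the values of Camk2a. The negative calls with the largest size were Mylk, the myosin light chain kinase of smooth muscle (-0.63 ± 0.149, adjusted p = 0.0308), and Phkg2, a catalytic subunit of phosphorylase kinase (-0.60 ± 0.147, adjusted p = 0.0329). Camk2g, the gamma subunit, and Dapk2 were the others, at -0.59 and -0.50 (adjusted p = 0.0281 and 0.0394), and were named after their values were seen, to complete the count. The spots of Camk2g disagreed, with mean ratios of 0.51 (adjusted p = 0.0657) and -1.69 (adjusted p = 0.0153). Neither spot of Dapk2 passed by itself, at -0.52 and -0.49 (limma adjusted p = 0.0599 and 0.186). Of the 5 Mylk spots 3 passed, at -0.91, -1.02 and -1.22, and the others stood at 0.05 and -0.03. With runs centred none of the 4 kinases Camk2b, Camkv, Mylk and Phkg2 passed, at 0.44, 0.19, -0.39 and -0.04 (limma adjusted p = 0.165, 0.317, 0.105 and 0.85), and Phkg2 did not pass with medians subtracted (-0.44, adjusted p = 0.0952).

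Calcineurin, the phosphatase switched on by calmodulin, had genes at both ends. Ppp3cb, a catalytic subunit of brain, had a mean ratio of 0.91 ± 0.17 (moderated SE, n = 4, limma adjusted p = 0.018). Its spot read -0.18, 0.12, 0.37 and 0.36 with the mutant in Cy5 and 1.36, 1.13, 2.04 and 2.08 with the mutant in Cy3, without overlap. Ppp3cc and Ppp3r2, the catalytic and regulatory subunits known from testis, had -0.86 ± 0.224 (adjusted p = 0.0388) and -1.28 ± 0.209 (adjusted p = 0.0154). Ppp3r1, the regulatory subunit of brain and most tissues, had -0.80 ± 0.195 (adjusted p = 0.0336), opposite in sign to Ppp3cb. The spots of Ppp3cc stood at -1.19 and -0.40 (limma adjusted p = 0.016 and 0.367). Those of Ppp3r2 stood at -1.22, -1.22 and -1.31 (limma adjusted p = 0.0158, 0.0222 and 0.128). The last of these, spot 13533, had values on 7 arrays, which ran from 0.44 to -4.22. The other 5 of the 9 genes did not pass. With runs centred Ppp3cc and Ppp3r1 stood at -0.43 and -0.14 (limma adjusted p = 0.204 and 0.639), while Ppp3cb and Ppp3r2 kept their calls.

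In the family of Pde1a, Pde1c stood at -0.59 ± 0.12 (moderated SE, n = 4, adjusted p = 0.0216) with 3 spots at -0.40, -0.66 and -0.72, and Pde1b, the form abundant in striatum, had 0.40 (adjusted p = 0.097, limma). Of 13 phosphodiesterases and cyclases that calmodulin does not stimulate 2 were positive and 3 negative, with the cyclase Adcy2 at 0.82 ± 0.123 (adjusted p = 0.015) and Adcy6 at -1.90 ± 0.445 (adjusted p = 0.0299), measured on 6 arrays. For mice 3 and 4 Adcy6 had a value only with the mutant in Cy5, at -1.53 and -0.52, so its dyes were not balanced there. Pde8a stood at -0.83 and Pde5a at -0.51 (adjusted p = 0.0256 and 0.0423), and Adcy9, at 0.49 (adjusted p = 0.0392), was named after its value was seen, to complete the positive calls. The spots of Pde8a stood at -1.13 and -0.52 (limma adjusted p = 0.0158 and 0.285). With runs centred Pde1c, Adcy2 and Pde5a stood at -0.26, 0.24 and -0.17 (limma adjusted p = 0.184, 0.216 and 0.497), and with medians subtracted Pde8a and Pde5a had an adjusted p of 0.0517 and 0.0987.

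Of 7 other enzymes, pumps and channels, Atp2b2, a plasma membrane calcium pump of neurons, reached a mean ratio of 0.97 ± 0.148 (moderated SE of limma, n = 4, adjusted p = 0.015). Rasgrf1, a Ras exchange factor bound by calmodulin, had 0.88 ± 0.156 (adjusted p = 0.0167). Each was above 0 on 8 of 8 arrays. Nos3, the nitric oxide synthase of endothelium, had -0.99 ± 0.156 (adjusted p = 0.0152) and was above 0 on none. Of 12 binding proteins without enzyme activity 3 were positive and 1 negative. Add1, an adducin of the membrane skeleton, had 0.82 ± 0.125 (adjusted p = 0.015), Gap43, the growth-associated protein of axons, 0.76 ± 0.119 (adjusted p = 0.015) and Nrgn, neurogranin, which holds calmodulin in dendritic spines, 0.48 ± 0.116 (adjusted p = 0.0317). Strn3, a striatin, had -1.22 ± 0.2 (adjusted p = 0.0154). The spots of Nrgn split, with 0.87 and 0.79 (adjusted p = 0.0203 and 0.0202) against -0.21 (adjusted p = 0.418). With runs centred Atp2b2, Rasgrf1, Gap43 and Nrgn stood at 0.58, 0.34, 0.34 and 0.13 (limma adjusted p = 0.0571, 0.168, 0.11 and 0.456), while Nos3, Add1 and Strn3 kept their calls.

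Of 23 other EF-hand proteins, 4 were positive and 1 negative in the mean ratio. Hpcal4 and Vsnl1, neuronal calcium sensors of the visinin family, had 0.84 ± 0.152 and 0.82 ± 0.128 (moderated SE, n = 4, adjusted p = 0.017 and 0.015). Pdcd6 had 0.76 and the calmodulin relative Cabp1 0.63 (adjusted p = 0.0253 and 0.0413), and Kcnip2, a channel partner named after its value was seen, was the negative one at -0.58 (adjusted p = 0.026). The spots of Kcnip2 split, with -0.99 and -1.24 (limma adjusted p = 0.0158 for each) against 0.04 and -0.11 (0.855 and 0.579). Pvalb, the calcium buffer of fast-spiking interneurons, did not pass in the mean ratio (-0.63, adjusted p = 0.305). With runs centred Hpcal4, Vsnl1, Pdcd6 and Cabp1 stood at 0.45, 0.41, 0.26 and 0.24, none past the threshold (limma adjusted p = 0.0608, 0.0987, 0.269 and 0.334).

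In the swap component 7 of 43 measured pathway genes passed with a negative value and none with a positive one, where 7.9% of 8119 genes were called, 6.82% negative and 1.07% positive (limma). They were Ppp3cb (-0.85 ± 0.111, adjusted p = 0.0297), Camk2b (-0.76 ± 0.103) and Camkv (-0.76 ± 0.116, adjusted p = 0.0297 for each), Gap43 (-0.64 ± 0.115, adjusted p = 0.033), Atp2b2 (-0.63 ± 0.114, adjusted p = 0.0335), Rasgrf1 (-0.63 ± 0.12, adjusted p = 0.0356) and Itpka (-0.50 ± 0.105, adjusted p = 0.0437), a kinase of inositol trisphosphate named after its value was seen, to complete the count. All but Itpka were also among the positive calls of the mean ratio. The 11 genes called negative in the mean ratio had swap components of -0.01 to 0.71, none of which passed, such as Nos3 at 0.08 (adjusted p = 0.679), Ppp3r2 at 0.27 (0.399) and Calm4 at 0.71 (0.0979). Among the comparison genes Hpcal4 (-0.72), Vsnl1 (-0.66), Pvalb (-0.78) and Adcy2 (-0.66) passed, with adjusted p of 0.0297 to 0.0321. As deposited, without subtraction of medians, no pathway gene passed (14 at an unadjusted p below 0.05), and none passed without any 1 of the mice. With runs centred Camk2b and Ppp3cb were the 2 that passed.

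In the mean ratio, markers of neurons, astrocytes and oligodendrocytes had positive calls and no negative ones. Those of microglia, endothelium and blood cells had both. Among all 8605 genes 11.3% were called positive and 17.5% negative, with a median of -0.18. Over all spots no call in the mean ratio was left without mouse 2, mouse 3 or mouse 4, or with the mutant in Cy5 alone. Of 14 measured neuron markers (of 20 listed) 10 were positive, with a median of 0.66 and values from -0.26 for Map2 to 0.97 for Syp. Of 13 astrocyte markers (of 16) 6 were positive, with a median of 0.41 and values from -0.69 for S100b to 1.09 for Glul. Of 8 oligodendrocyte markers (of 14) 4 were positive, with a median of 0.44 and values from -0.35 for Olig2 to 0.92 for Cnp. Microglia markers had 1 positive and 3 negative of 7 (median -0.18), endothelial ones 1 and 1 of 5 (median 0.06) and blood cell ones 1 and 3 of 5 (median -1.03). In the swap component all marker calls were negative, at 6 of 13 neuron, 4 of 13 astrocyte, 4 of 8 oligodendrocyte and 1 of 5 blood cell markers. Microglia and endothelial markers had none, where 6.82% of all genes were called negative and 1.07% positive. Gap43 stands both among the neuron markers and among the binding proteins. The part of these markers in the ratios of the calmodulin genes was not tested.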

How the data were processed

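Per the labels' protocols, total RNA of each brain was reverse transcribed, given a dye by indirect labelling and hybridised together with the pool in the other dye. The deposited values are log2 ratios, a scale read from the values themselves, where weak spots recur at ratios of whole numbers shifted by a constant for each array. For the numerator, image software, background correction and normalisation, the methods of the authors were not given in the sources used. The median ratio per array ran from -0.147 to -0.005 with the mutant in Cy5 and from -0.571 to -0.085 with the mutant in Cy3. Empty cells (221 to 553 per array) and a code for an empty denominator (1 to 30) were treated as missing. Of the 72 values of the named spots 1 matched a ratio of whole numbers up to 10 within 0.001. It belonged to Camk2a spot 18111, in mouse 4 with the mutant in Cy3. With weak spots set to missing, Camk2a spot 18111 had a mean ratio of 0.64 and was no longer called (limma adjusted p = 0.0693). Nothing is read from this call, since the mean ratio chose the gene.

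Spots were named with the platform annotation at spot number minus 11, for annotation numbers up to 20000. This shift was found from the agreement of spots of the same gene, not from the labels, and every gene name depends on it. All 12131 entries matched the RefSeq gene table (GRCm38.p6) by gene identifier.

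limma 3.58.1 in R 4.3.3 tested the 4 mouse values of a spot or gene against 0 (an intercept fitted by lmFit, then eBayes), with Benjamini-Hochberg adjustment over all spots or genes and a threshold of 0.05. Spots needed a value in every mouse (mean ratio) or on all 8 arrays (swap component), and spots of a gene were averaged for the lists. The code was tested on simulated data. Nothing in the labels gives the strain or litter of the mice, and the tests leave out the spread among wildtype mice.

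Genes named were all spots of the 4 genes, all measured genes of the calmodulin family, up to 4 genes per other list by the size of the mean ratio and 2 by the swap component past the threshold, and the 3 genes most correlated with each of the 4. Alternatives were subtracted medians, centred runs of 48 spots, weak spots set to missing, spots on all 8 arrays, each orientation alone, each mouse left out, names at the same spot number and single spots. The members, lists and rules were chosen with earlier results of these data known.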

Additional observations from a re-analysis of the deposited data

Results flagged for a closer look

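Among 115 sets of 4 mice examined, covering the named spots and genes, 5 held a mouse whose distance to its nearest neighbour took up more of the range than Dixon's 95% critical value allows, and chance gives about 1 in 20. Calm3 spot 19971 with the mutant in Cy5 had mouse 3 at 1.07, while the others lay at 0.40 to 0.43 (share of the range 0.955). The swap component of Camkv had mouse 2 at -1.03 and the others at -0.70 to -0.64 (0.832). That of Nrgn had mouse 2 at -0.68 and the others at -0.23 to -0.15 (0.846), and that of Eif3c had mouse 2 at -0.73 and the others at -0.55 to -0.51 (0.83). The mean ratio of Pak4 had mouse 4 at -2.05 and the others at -0.79 to -0.56 (0.849).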

How the results depend on the processing

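Over all spots the mean ratio gave 6105 calls, which became 0 with only the Cy5-labelled mutants used (4633 spots at an unadjusted p below 0.05) and 0 to 3926 when 1 mouse was left out. The 19 pathway calls became 12 with runs of 48 spots centred, 6 with names at the same spot number, 0 with the mutant in Cy5 alone (9 genes at an unadjusted p below 0.05) and 0 to 10 without 1 mouse, and stayed between 19 and 21 in number under the other alternatives. The swap component gave 1473 calls over all spots, 0 as deposited, 0 with runs centred and 0 without any 1 mouse (5785, 4958 and 4106 to 5417 spots at an unadjusted p below 0.05, limma). Its 7 pathway calls became 0 as deposited, 2 with runs centred, 0 with names at the same spot number (7 genes at an unadjusted p below 0.05) and 0 without any 1 mouse (9 to 13 genes, limma). The cause was not tested. Without 1 mouse fewer mice enter the fit.

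No spot of Calm2, Calm3 or Camk2a changed sign in the mean ratio or the swap component under any alternative. Pde1a spot 13848 changed sign with runs centred, to 0.05. Pde1a spot 19665 stood at 0.78 with the mutant in Cy5 alone and at -1.61 in Cy3 alone. Other signs that turned were those of the mean ratio of Hdgfl2 with runs centred (-0.14), of Calml4 and Cdc25a with the mutant in Cy5 alone (0.04 and 0.10) and of Pvalb in Cy3 alone (0.04, against -0.63 over both), and of the swap component of Phkg2, Pde1c and Cabp1 with runs centred (-0.01, -0.05 and 0.06), and, when 1 mouse was left out, of Ppp3cc (-0.16 to 0.26), Pde1c (-0.05 to 0.16) and Phkg2 (-0.01 to 0.16). The 2 arrays of a mouse were combined within that mouse. No mutant could be paired with a wildtype mouse of its own, because the only control is 1 pool. No spot intensities were used here, so signal over background is unknown.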
